A study of Mus musculus with 6 samples.

Results

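The precursors mir-320 (mmu-mir-320) and mir-484 (mmu-mir-484) were examined in small RNA libraries of mouse retina. They were chosen by name for the way they are made, and they are 2 of 855 miRNA precursors with deposited values. Both were among the 461 precursors tested, which had a mean of at least 10 RPKM (reads divided by precursor length and by library total). Control mice were Dicerfl/fl without iCre75 and cKO mice were Dicerfl/fl with iCre75. Both groups therefore carried floxed Dicer1 alleles, were 4 weeks old and had a mixed C57BL/6J - SJL background. The iCre75 transgene is driven by a rhodopsin promoter, so deletion is directed to rods, while Müller glia, inner retinal neurons and vessels keep Dicer1. Each group had 3 libraries, each from pooled tissue (6 retinas), and the assignment of mice to pools is not stated in the labels. The samples are described as biological replicates.

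Most miRNAs are cut from long primary transcripts by Drosha with DGCR8 in the nucleus, exported, and cut again by Dicer in the cytoplasm. The mouse precursors of miR-320 and miR-484 bypass the nuclear cut. Transcription starts at the hairpin itself, so the 5′ end of the precursor carries the cap that RNA polymerase II transcripts receive, and Dicer makes the only cut. Mirtrons, which are introns folded into hairpins, bypass Drosha through splicing, and some hairpins in snoRNAs bypass it too. The precursor of miR-451a is the opposite case: it is cut by Drosha and matures without Dicer. In human cells miR-320 has been linked to silencing of POLR3D, beside which it is encoded, and in heart muscle cells miR-484 has been linked to mitochondrial fission through Fis1.

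The annotation placed both genes beside or within a protein-coding gene on the opposite strand. In GENCODE M21 (GRCm38) the neighbour of Mir320, on chromosome 14, was Polr3d, which encodes a subunit of RNA polymerase III. On chromosome 16, Mir484 lay within the span of Marf1, a regulator of oocyte meiosis, with Nde1, a dynein regulator needed for cortical neurogenesis, next on its own strand. The deposited values were made on another build, mm9, so no coordinates are given.

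The miR-484 sequence is shown because its seed (bases 2 to 8, in capitals in the first line) sets its targets. The second line gives its hairpin with the mature miRNA in capitals. The mirtron hairpins mir-877 and mir-1224 are set beside it with their first and last 2 bases in capitals, the GU and AG at which an intron is spliced. All 4 lines read 5′ to 3′ and come from RefSeq (GRCm38.p6).
miR-484: uCAGGCUCaguccccucccgau
mir-484 hairpin: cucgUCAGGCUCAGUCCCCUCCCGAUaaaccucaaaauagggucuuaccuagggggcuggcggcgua
mir-877 hairpin: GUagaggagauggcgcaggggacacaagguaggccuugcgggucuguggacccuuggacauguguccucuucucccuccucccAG
mir-1224 hairpin: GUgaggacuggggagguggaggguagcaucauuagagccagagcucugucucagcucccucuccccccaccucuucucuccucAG

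Mature miR-484 occupied bases 5 to 26 of a 67-base hairpin. The median of 1005 RefSeq mouse hairpins is 79 bases, and 28.6% of them are as short as mir-484 or shorter. Only 4 bases precede the mature miRNA, against a median of 6 over 814 hairpins with a mature miRNA on the 5′ arm, and 26.9% of these have as few. No other of 1738 mature mouse miRNAs in that table had the same seed. No other hairpin in it matched any 20 consecutive bases of the mir-484 hairpin with 1 mismatch or fewer. Of 7 mirtrons with a RefSeq hairpin, 4 began with GU and ended with AG, which holds for 2.99% of all 1005 hairpins. Sequence of mir-320 is not used here. In the deposited values no precursor had reads within 5% of those of mir-320 or of mir-484 in all 6 libraries. The identical values of mir-451a and mir-451b show what fully shared reads look like in the table. Reads shared only in part would not be found this way.

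The deposited values are per precursor, so the 5′ and 3′ arm products of a hairpin are summed. Library totals recovered from the RPKM steps ran from 5480940 to 7478237 reads. In control retina mir-484 was the more abundant of the pair, and both ranked between 99th and 123rd among 855 precursors in each control library. The level of mir-320 was 2262, 2591 and 2770 RPKM in control 1, 2 and 3, from 1387, 1465 and 1604 reads. In control 1 this was 185 reads in 1000000 of the library total, with a Wilson 95% interval of 176 to 195. The interval covers counting error only, because amplified reads with no molecular tags can stem from 1 molecule. The level of mir-484 was 3539, 4676 and 4356 RPKM in the same libraries, from 1773, 2160 and 2061 reads. These are modest levels for the retina: mir-182, the dominant photoreceptor miRNA, was at 7089879 RPKM or more in each control library.

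In cKO retina mir-320 stood at 2759, 3549 and 3754 RPKM in cKO 1, 2 and 3, from 1567, 2012 and 1687 reads. Replicate cKO 1 lay just below control 3, so the groups overlapped, while cKO 2 and cKO 3 lay above every control. The control mean was 2541 ± 258 RPKM and the cKO mean 3354 ± 525 RPKM (SD, n = 3 each). As deposited mir-320 rose 1.31-fold, by 0.39 on the log2 scale with an SE of 0.16 (limma, Benjamini-Hochberg adjusted p = 0.047). Higher calls were made for 320 of 461 precursors, or 69.4%, so a rise was the common outcome. Precursors with identical values, such as mir-451a and mir-451b, are counted separately in this and later shares. The call of mir-320 was close to the threshold of 0.05. It was lost when control 1, control 2, cKO 2 or cKO 3 was left out (limma adjusted p = 0.098, 0.084, 0.15 and 0.19), at log2 fold changes of 0.31, 0.41, 0.35 and 0.31. Without cKO 1 it was 0.53 (adjusted p = 0.016).

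The level of mir-484 was 4228, 4002 and 3510 RPKM in cKO 1, 2 and 3, from 1962, 1854 and 1289 reads. These values lay within or below the control range: cKO 1 and cKO 2 fell between the lowest and highest control, and cKO 3 lay just under control 1. The control mean was 4190 ± 587 RPKM and the cKO mean 3913 ± 367 RPKM (SD, n = 3 each). As deposited mir-484 did not pass, with a log2 fold change of -0.093 and an SE of 0.15 (limma adjusted p = 0.59). Lower calls were made for 8 of 461 precursors, or 1.74%. In 71.6% of tested precursors every cKO library was above every control library, and in 1.95% every cKO library was below; neither member was among these. In log2 fold change 22 of 461 precursors lay below mir-484 and 90 lay below mir-320, so both stood in the lower part of the range.

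**Figure D1:**
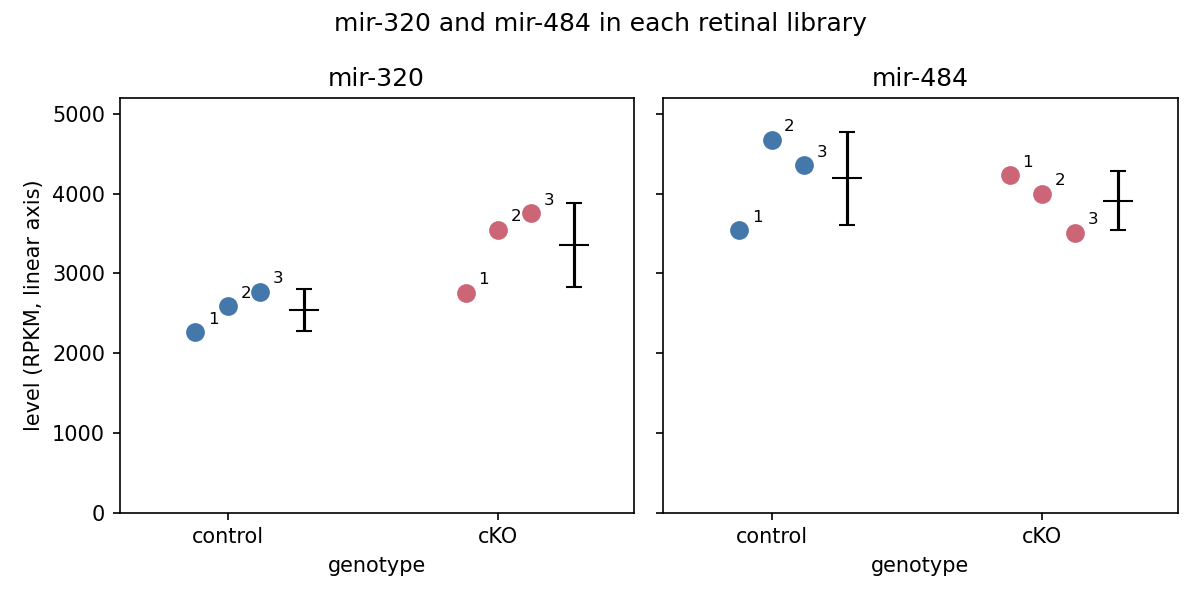
Level of mir-320 and mir-484 (RPKM, linear axis) in each of 3 control and 3 cKO libraries; numbers are replicate numbers, and black bars show the mean and SD. For mir-320, cKO 2 and cKO 3 lie above all controls while cKO 1 does not, and the mir-484 groups overlap.

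**Figure D2:**
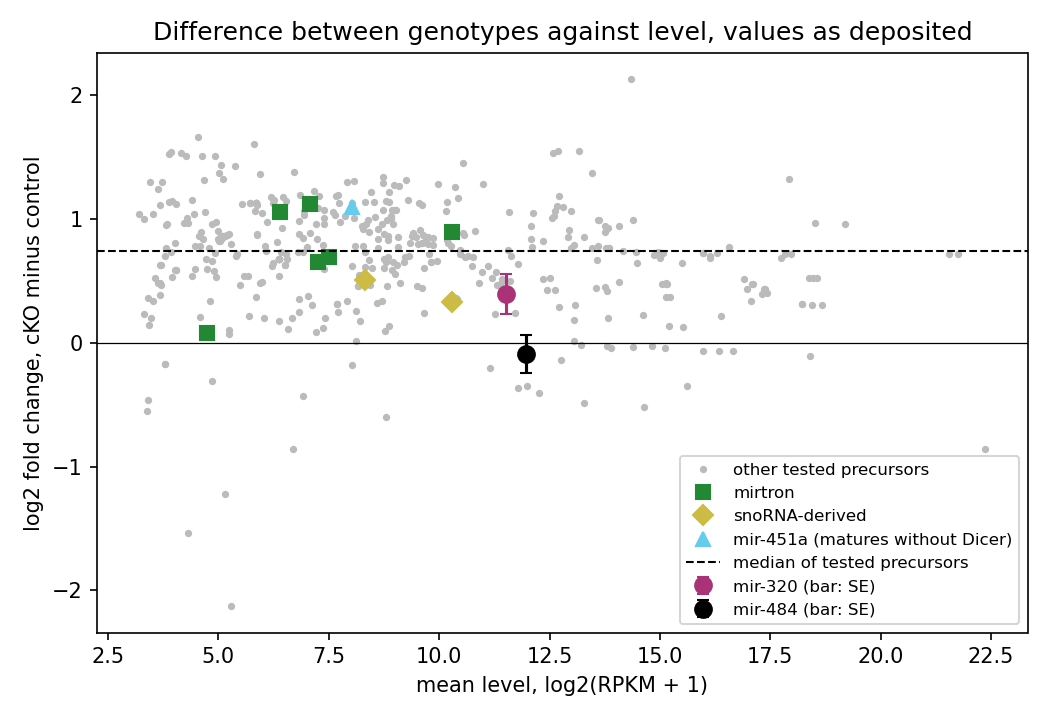
Log2 fold change (cKO minus control) against mean log2(RPKM + 1) for 461 tested precursors, values as deposited; the dashed line is the median of 0.74 and bars on the members are SE. Both members lie below the dashed line and mir-484 lies below 0, whereas 5 of 6 mirtrons are between 0.65 and 1.12.

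A scale between libraries is needed to read these differences. RPKM is relative to each library's own total, of which mir-182 took 53.2% to 57.4% in control and 27.7% to 33.8% in cKO libraries. The median tested precursor was 1.67-fold higher in cKO retina as deposited (log2 0.74). Against this shift mir-320 stood 0.35 lower and mir-484 0.83 lower on the log2 scale. In whole retina, fewer cells of a type and less RNA per cell cannot be told apart.

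Scaling by the median of ratios centres the tested precursors between libraries, and the median log2 fold change was then 0.018, with both members below 0. There mir-484 fell by 0.82 on the log2 scale (SE 0.14; limma adjusted p = 0.0045), to 0.565 of its control level. Lower calls were made for 46 of 461 precursors at this scaling, or 9.98%. The call of mir-484 was made again in each of the 6 fits that left out a library, at log2 fold changes of -0.92 to -0.73 (limma adjusted p = 0.0038 to 0.024). At the same scaling mir-320 did not pass, at -0.34 (SE 0.13; limma adjusted p = 0.15).

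The other scalings gave the same split between the pair. Dividing by totals without mir-182 put mir-484 at -0.69 (limma adjusted p = 0.017) and mir-320 at -0.21 (adjusted p = 0.32), with 7.16% of precursors called lower. Such totals are RPKM summed over the remaining precursors, not library read totals. Totals without the 10 most abundant precursors gave -0.60 (adjusted p = 0.030) and -0.12 (adjusted p = 0.53), and quantile normalization gave -0.69 (adjusted p = 0.027) and -0.040 (adjusted p = 0.87). Under each of these 2 settings 6.29% of precursors were called lower. With quantile normalization the median log2 fold change was 0.042. Relative to this median mir-320 stood at only -0.082, with 180 of 461 precursors below it. There mir-484 stood at -0.73, with 26 precursors below it. The rise of mir-320 was thus called only with the deposited totals, and the fall of mir-484 only once the totals were replaced.

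**Figure D3:**
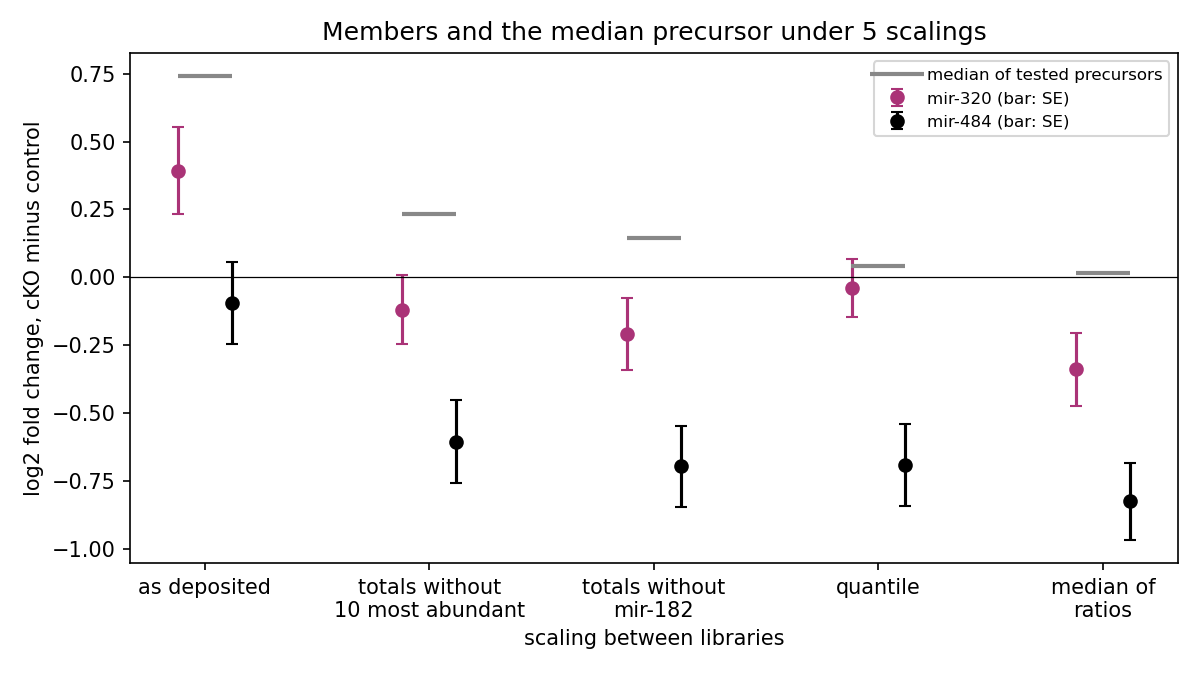
Log2 fold change (cKO minus control) of mir-320 and mir-484 with SE under 5 scalings between libraries; grey bars mark the median of the 461 tested precursors. The median runs from 0.74 as deposited to 0.018 with median-of-ratios scaling, mir-484 lies below 0 throughout, and mir-320 is above 0 only as deposited.

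Ratios formed within a library do not depend on that scale. The log2 ratio of mir-320 to mir-484, in RPKM, was -0.65, -0.85 and -0.65 in control 1, 2 and 3. It was -0.62, -0.17 and 0.097 in cKO 1, 2 and 3. Every cKO library lay above every control library, but cKO 1 did so narrowly. The same held for the ratio to mir-484 of 70.0% of the 460 tested precursors other than mir-484, and 1.96% were lower without overlap. In cKO 3 mir-320 was the more abundant of the pair. By reads alone, not divided by the hairpin lengths of 82 and 67 bases, mir-320 also exceeded mir-484 in cKO 2. The ratio was 1.40-fold higher in cKO retina (log2 difference 0.49; exact two-sided permutation p = 0.1, the smallest that 3 against 3 allows). Without cKO 1 the log2 difference was 0.68, and without cKO 3 it was 0.32.

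Relative to the median of tested precursors in its own library, mir-484 stood at 13.6-, 16.4- and 14.4-fold in control 1, 2 and 3. The same measure was 9.34-, 7.77- and 7.47-fold in cKO 1, 2 and 3, so the groups did not overlap. The mean log2 ratio was 0.85 lower in cKO retina (exact two-sided permutation p = 0.1). For mir-320 the values were 8.67-, 9.09- and 9.14-fold in control and 6.09-, 6.89- and 7.99-fold in cKO libraries. They too did not overlap, with a log2 difference of -0.37 (exact two-sided permutation p = 0.1). Of all tested precursors 20.8% were lower in this measure without overlap and 13.7% were higher, so such a separation was common. Of the 5 ratios tested in all, each had an adjusted p of 0.1. The ratio to the library median takes the middle of the tested precursors as its reference, much as median-of-ratios scaling does. It is therefore not a separate check on that scaling.

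**Figure D4:**
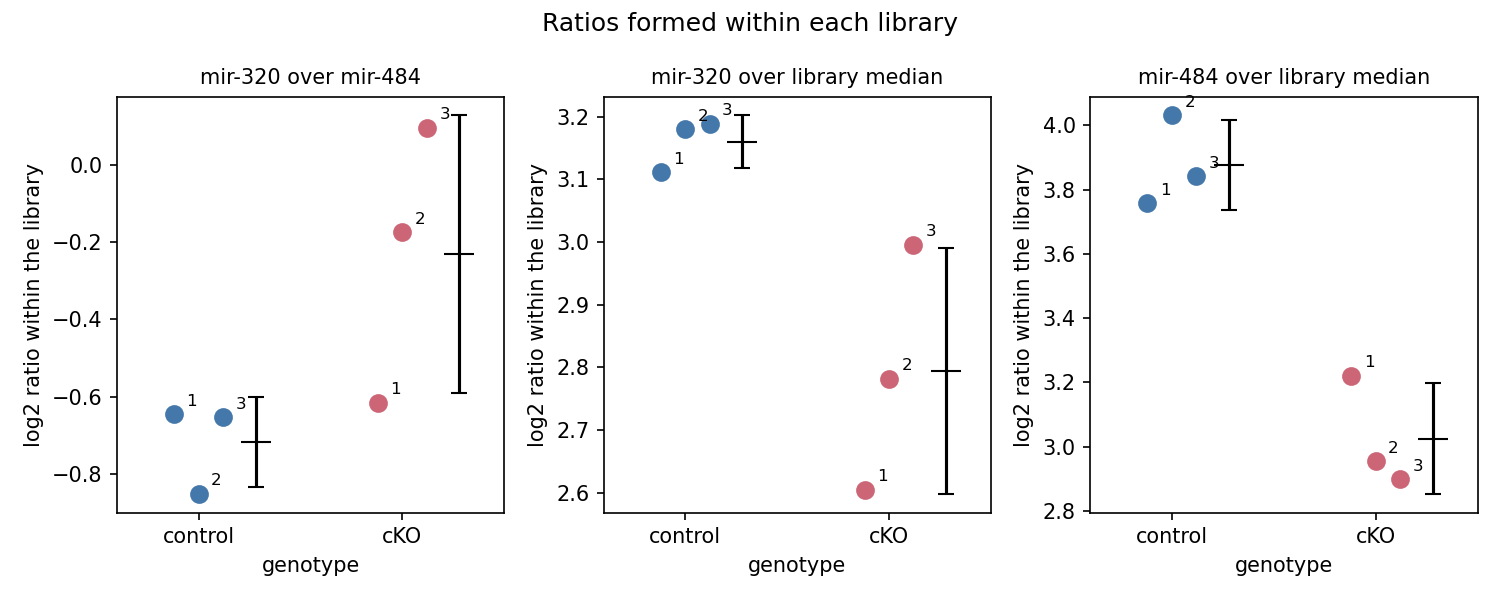
Log2 ratios formed within each library (vertical axes differ and do not start at 0) for mir-320 over mir-484 and for each member over the median of the tested precursors; black bars show mean and SD of 3 libraries. In every panel the control and cKO libraries are apart, by the smallest margin for mir-320 over mir-484, where cKO 1 is at -0.62 and control 1 at -0.65.

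Other precursors that bypass Drosha were set beside the pair. Of 8 listed mirtrons 6 were tested, since mir-702 and mir-5132 had means below 10 RPKM. As deposited 5 of 6 rose and none fell (limma), with a median log2 fold change of 0.79 beside 0.74 for all tested precursors, of which 69.4% were called higher. The placing of mir-668 among them is uncertain: its RefSeq hairpin neither begins with GU nor ends with AG. The same holds for the untested mir-702 and mir-5132, and the ends of mir-3102 were not checked for lack of a RefSeq hairpin. Without mir-668, 4 of 5 rose, with a median of 0.69. The mirtron mir-1224 was at 50.3, 58.0 and 65.0 RPKM in control and at 126, 126 and 109 RPKM in cKO libraries. It rose 2.07-fold (adjusted p = 0.0012) and mir-3102 rose 2.17-fold (adjusted p = 0.0010). Rises were also called for mir-668 (1.85-fold, adjusted p = 0.0015), mir-877 (1.61-fold, adjusted p = 0.010) and mir-1981 (1.57-fold, adjusted p = 0.011). The call of mir-877 ended without cKO 2 and that of mir-1981 without cKO 3 (limma adjusted p = 0.057 each). The mirtron mir-1982 was at 25.2 ± 3.00 and 26.6 ± 1.09 RPKM (SD, n = 3 each) and did not pass at 0.079 (adjusted p = 0.79). Once values were scaled by the median of ratios, where 2.17% of tested precursors were called higher, no mirtron was called, and the values ran from -0.62 for mir-1982 to 0.39 for mir-3102.

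The log2 ratio of mir-484 to the mean of these 6 mirtrons was 5.01, 5.36 and 5.18 in control 1, 2 and 3. In cKO 1, 2 and 3 it was 4.55, 4.32 and 4.17. The groups did not overlap. This held in the same direction for 20.2% of the 455 tested precursors outside the mirtron list, the pair included, and for 15.6% in the opposite one. The ratio was 0.84 lower in cKO retina (exact two-sided permutation p = 0.1). For mir-320 the ratio was 4.37, 4.51 and 4.53 in control and 3.93, 4.15 and 4.27 in cKO libraries, again without overlap and 0.35 lower (exact two-sided permutation p = 0.1). Without mir-668, which lies in the imprinted Dlk1-Dio3 region, the differences were -0.81 and -0.32. The mirtrons were less abundant than the pair, with mir-668 at 1321 RPKM and the other 5 tested at 25.9 to 187 RPKM over the 6 libraries.

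Of the snoRNA-derived hairpins mir-664 rose 1.42-fold (adjusted p = 0.013), from 268 ± 26.3 to 380 ± 18.9 RPKM (SD, n = 3 each; limma). Its log2 fold change of 0.50 was 0.48 without cKO 2 and also without cKO 3, where it no longer passed (limma adjusted p = 0.058 and 0.051). The second, mir-1839, did not pass, at 1130 ± 224 and 1409 ± 143 RPKM (SD, n = 3 each; log2 0.33; limma adjusted p = 0.10). Without control 1, the highest control, it rose by 0.49 (limma adjusted p = 0.014). Scaled by the median of ratios, mir-664 and mir-1839 stood at -0.23 and -0.40, and neither passed. Dicer-independent mir-451a, cut by Drosha, was at 141, 185 and 210 RPKM in control and at 331, 372 and 441 RPKM in cKO libraries. It stood at a log2 fold change of 1.10 as deposited, higher than 82.2% of tested precursors. Scaled by the median of ratios it was at 0.37 and did not pass (limma adjusted p = 0.19). This miRNA is known from red cells.

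The precursors whose course over the 6 libraries was most like that of each member were sought among 305 others with a mean of at least 100 RPKM. The measure was the root mean square difference between log2 values centred on each precursor's mean. It includes the difference between the groups, so fold changes close to those of the member follow from how the precursors were picked. For mir-484 the nearest were the 3 copies of mir-124, the pan-neuronal miRNA, at 0.053 each, and then mir-28c (0.068) and mir-28a (0.077). Copies of mir-124 are near-identical and are not separate measurements. Like mir-484, mir-124-1 did not pass as deposited (-0.071), and after median-of-ratios scaling it fell by 0.80 (limma adjusted p = 0.0047). For mir-320 the nearest were mir-101b (0.071), mir-30c-2 (0.094), mir-30c-1 (0.095) and both copies of mir-26a (0.10 each). Of these, mir-101b rose by 0.44 as deposited (limma adjusted p = 0.019) and stood at -0.30 with median-of-ratios scaling. The distance between mir-320 and mir-484 was 0.33, and 195 precursors were nearer to mir-320 than mir-484 was. From the side of mir-484, 60 precursors were nearer than mir-320.

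Retinal miRNAs were present in all libraries, with mir-182, mir-183 and mir-96 summing to 7568213 to 7894241 RPKM in control and 4037712 to 4911543 RPKM in cKO libraries. Among these 3 sensory markers mir-182 and mir-96 fell as deposited (limma), where 1.74% of tested precursors did. With median-of-ratios scaling all 3 were called lower (median log2 fold change -1.22), as were 9.98% of tested precursors. Liver mir-122 was at or under 4.40 RPKM. How far mir-204 and mir-211, listed for pigment epithelium, mark it in isolated retina was not tested. Their summed RPKM was 655315 to 758334 in control and 1197357 to 1475670 in cKO libraries. Both rose as deposited, as did 69.4% of tested precursors, and neither was called with median-of-ratios scaling (median log2 fold change 0.23). The 3 red cell markers (mir-451a, mir-144, mir-486) summed to 16553 to 19359 and 26667 to 31080 RPKM, and endothelial mir-126 ran from 5495 to 8953 and from 17256 to 18854 RPKM. As deposited 2 of the red cell markers and mir-126 were called higher (limma). With median-of-ratios scaling no red cell marker was called. There mir-126 was still called higher (log2 fold change 0.64), as were 2.17% of tested precursors. Lens and epithelial markers (mir-184, mir-31, mir-205) summed to 2499 to 54376 and 25397 to 63458 RPKM, and the 3 muscle markers to 557 to 970 and 938 to 1466 RPKM. No lens or epithelial marker was called. Of 2 tested muscle markers 1 was called higher as deposited and none with median-of-ratios scaling. The 3 copies of mir-9, listed for neural retina and Müller glia, summed to 147400 to 193468 and 256649 to 281145 RPKM. All 3 rose as deposited (limma) and none was called with median-of-ratios scaling. Their log2 fold changes as deposited were 0.72 each, and these copies are not separate measurements. The part of these cell types in the results for mir-320 and mir-484 was not tested.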

How the data were processed

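The authors deposited RPKM values for 855 precursors in 6 libraries. Per the labels' protocols, small RNA libraries from total RNA were gel-selected and pooled in a single sequencing run. Per the submitters' processing notes, Bowtie and mm9 were used; version, annotation and treatment of multiply matching reads are not stated in the labels. Whole reads were recovered from RPKM, precursor length and a step fixed per library (100.0% of 3168 values, tolerance 0.01 reads). Reads summed over precursors were 1.55 to 1.86 times the library total, so reads matching several precursors appear at each.

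Genotypes were compared (cKO minus control) on log2(RPKM + 1) with limma 3.58.1 (R 4.3.3; moderated variance with an intensity trend). The 461 precursors tested averaged 10 RPKM or more. Tests were two-sided, with Benjamini-Hochberg adjustment over all 461 at 0.05. The pseudocount makes fold changes of low precursors too small. Within-library ratios were tested by exact permutation (scipy 1.17.1). The fit was checked on simulated data with rises and falls equally likely. That check holds no shift in library composition, so it does not cover the choice of scaling. Members and lists were chosen with earlier results of these data known. Named precursors are the members, those that bypass Drosha or Dicer, the 5 most alike in course and the 3 next above and below in mean RPKM; marker lists were fixed alongside. Alternatives covered pseudocount, filter, scaling, variance model, library weights, voom, a replicate block and fits that each omit a library. Voom with median-of-ratios scaling, that scaling with each library left out, and the mirtron mean and count without mir-668 were added after seeing the data. P-values measure the spread between pools.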

Additional observations from a re-analysis of the deposited data

How the results depend on the processing

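Scaling decided the calls of the pair. The log2 fold change of mir-320, 0.39 as deposited, was -0.34 (median of ratios), -0.040 (quantile), -0.12 (totals without the 10 most abundant), -0.21 (totals without mir-182) and -0.34 (voom with median of ratios, adjusted p = 0.14), and did not pass. Without trend it stayed at 0.39 (limma adjusted p = 0.073). Array weights gave 0.44 (limma adjusted p = 0.0081) and voom on recovered reads 0.39 (limma adjusted p = 0.042), so the call was kept in both. The log2 fold change of mir-484, -0.093 as deposited, passed at -0.82, -0.69, -0.60, -0.69 and -0.82 under the scalings in the order above. Leaving out each library gave 0.31 to 0.53 for mir-320 and -0.21 to -0.0090 for mir-484; with median-of-ratios scaling also applied, mir-320 stood at -0.37, -0.31 and -0.32 without control 1, 2 and 3 and at -0.24, -0.36 and -0.43 without cKO 1, 2 and 3, and mir-484 at -0.89, -0.73, -0.83, -0.92, -0.82 and -0.75 in that order. Ratios within a library kept their direction in every alternative run. Scaling between libraries was not among these runs, since a factor per library cancels in such a ratio. Leaving out each library gave 0.32 to 0.68 for mir-320 over mir-484, -0.47 to -0.27 and -0.95 to -0.77 for mir-320 and mir-484 over the library median, and -0.43 to -0.26 and -0.94 to -0.75 over the mirtron mean, with an exact permutation p of 0.2 throughout.

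Higher calls, 320 as deposited, numbered 10, 12, 57, 22 and 9 under the 5 scalings in the order above and 252 to 322 without each library. Lower calls, 8 as deposited, numbered 46, 29, 29, 33 and 46, were 4 under a filter at a mean of 100 RPKM and 14 with array weights, and 4 to 12 without each library. Called mirtrons, 5 as deposited, numbered 0, 0, 1, 0 and 0, and 4 to 5 without each library. Called snoRNA-derived hairpins, 1 as deposited, numbered 0 under each of the 5 scalings, 2 with array weights, and 0 to 2 without each library. Among single precursors, the sign turned with median of ratios, quantile and voom with median of ratios for mir-877 (-0.039, -0.084 and -0.038) and mir-1981 (-0.078, -0.13 and -0.094). Under the 5 scalings it turned for mir-1982 (-0.62, -0.57, -0.41, -0.50 and -0.65), mir-664 (-0.23, -0.26, -0.0080, -0.098 and -0.23) and mir-1839 (-0.40, -0.40, -0.18, -0.27 and -0.40).

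Whether the replicate numbers pair the libraries is not settled. Deviations of same-numbered libraries correlated at 0.19, 0.26 and 0.0093 over 461 precursors, which are not independent. They were not compared with those of differently numbered libraries. With the replicate block mir-320 stood at 0.39 (limma adjusted p = 0.023) and mir-484 at -0.093 (adjusted p = 0.59). Both members had 1289 reads or more in each library, and 3 libraries per group limit the precision.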

Other observations

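The precursors next to the pair in abundance did not share one course. Next above mir-484 in mean RPKM (4052 over the 6 libraries) was mir-335, which lies in an intron of the imprinted Mest gene, at 4102 RPKM. It stood at 4055, 4545 and 5215 RPKM in control and 3822, 3585 and 3392 RPKM in cKO libraries, without overlap, and fell by 0.35 on the log2 scale as deposited (limma adjusted p = 0.047). The next, mir-342, rose 1.92-fold (adjusted p = 5.1e-04) and mir-328 rose 1.71-fold (adjusted p = 0.0036). Below mir-484, mir-340 rose 1.55-fold (adjusted p = 0.013), while mir-423 stood at -0.37 (adjusted p = 0.076) and mir-23b at 0.24 (adjusted p = 0.13).

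Around mir-320 (2947 RPKM) the order was mir-29b-1, mir-15a and mir-744 above, and mir-29b-2, mir-361 and mir-1843b below. Of these mir-744 rose 1.68-fold, mir-15a 1.62-fold, mir-361 1.43-fold and mir-1843b 1.37-fold (limma adjusted p = 0.0017, 0.0011, 0.0076 and 0.019). Both copies of mir-29b stood at 0.50 and did not pass (adjusted p = 0.11 each), with control 1 lowest at 1714 and 1509 RPKM. These values are as deposited, where 69.4% of tested precursors were called higher.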
